A study of Mus musculus with 16 samples.

Results

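Genes of neuroblasts and early neurons were followed in cultured adult neural stem cells, in ribosome footprints and in RNA. The 10 genes were listed by name and found by symbol among the 20409 genes of the count table: Dcx, Stmn2, Stmn1, Sox4, Sox11, Dlx1, Dlx2, Neurod1, Elavl3 and Map2. All 10 were present in the table. The donors were male FVB/N mice aged 8 to 10 weeks, wild type (WT) or their Fmr1-/y littermates (KO), whose single Fmr1 allele does not make the fragile X protein FMRP, and the cells came from their dentate gyrus. Cells of both genotypes grew in the mitogens EGF and FGF2 (20 ng/ml of each), and all were held for 10 min in 100 µg/ml cycloheximide, a blocker of translation elongation, ahead of lysis. Each of 8 cultures of independently isolated cells (4 WT, 4 KO) gave 1 library of cytoplasmic RNA and 1 library of footprints, the mRNA pieces that ribosomes shield from nuclease, from a single lysate. The labels do not say how many mice went into a culture. Footprint libraries of replicates 1 and 2 carried shorter molecular identifiers than those of replicates 3 and 4.

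New granule neurons of the dentate gyrus arise from stem cells by way of dividing progenitors, neuroblasts and immature neurons. SoxC transcription factors (Sox4 and Sox11) and the basic helix-loop-helix factor Neurod1 act early in that course, while the homeobox factors Dlx1 and Dlx2 are known from interneurons and from the neuroblasts of the other adult niche. Their products are followed by proteins that handle the neuronal cytoskeleton, among them doublecortin (Dcx), the stathmins and Map2, and by the neuronal RNA-binding protein Elavl3 (HuC).

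Library totals ran from 5330018 to 6580305 estimated counts in RNA and from 9397586 to 17147612 in footprints. Fmr1 itself separated the genotypes in footprints, at 129 to 149.7 CPM (counts scaled to library size) in WT and 12.73 to 26.98 in KO, whereas its RNA overlapped (27.4 to 106.8 in WT, 3.352 to 30.87 in KO). In RNA, 18 neural stem and progenitor markers summed to between 4022 and 11071 TPM (abundance scaled for transcript length and library size) per library. For 18 mature neuron markers the sum was 237 to 442. Vim, Fabp7 and Slc1a3 led the first list, with means of 2368, 1892 and 601 TPM. Prom1, Hopx and Lpar1 of that list had only 1, 3 and 7 counts over all 8 RNA libraries. The neuroblast marker Dcx was at 0 counts in 6 of 8 RNA libraries. Astrocyte (974 to 9574 TPM) and oligodendrocyte lineage markers (1837 to 2823 TPM) were also present in the RNA, while the microglial genes Cx3cr1 and Aif1 and the endothelial gene Cldn5 had no count in RNA of either genotype. The libraries of culture WT 1 stood apart, with 16 genes of dividing cells summing to 367 TPM in RNA against 1572 to 1994 in the other 7 cultures. In bulk samples of this kind, fewer cells of a type and less RNA per cell cannot be told apart.

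Measured per transcript length, the 10 genes fell into 4 that were abundant and 6 that were rare. TPM values were deposited as whole numbers, so values of the rare genes are coarse. In RNA the mean over 8 libraries was 421 TPM ± 124 (SD) for Stmn1, a microtubule-destabilizing stathmin that dividing cells also use. Sox4 followed at 341 ± 232, Map2, which stabilizes dendritic microtubules, at 321 ± 157, and Sox11 at 68.5 ± 20.9. The ranges of the first 3 overlapped, and Sox11 at 51 to 110 TPM lay below all 8 Map2 values and above all 8 values of each rare gene. Elavl3 (4.75 TPM), Neurod1 (2.75), Dlx1 (2.25), Dlx2 (1.13), Dcx (0.75) and Stmn2 (0.5) followed in that order of means, each overlapping the next. In footprints Map2 (715 ± 236 TPM) and Stmn1 (677 ± 167) led with overlapping ranges, followed by Sox4 (139 ± 104) and Sox11 (79.5 ± 10.7). Footprint means of the rare genes ran from 0.375 TPM for Dlx2 to 6.63 TPM for Stmn2.

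**Figure D1:**
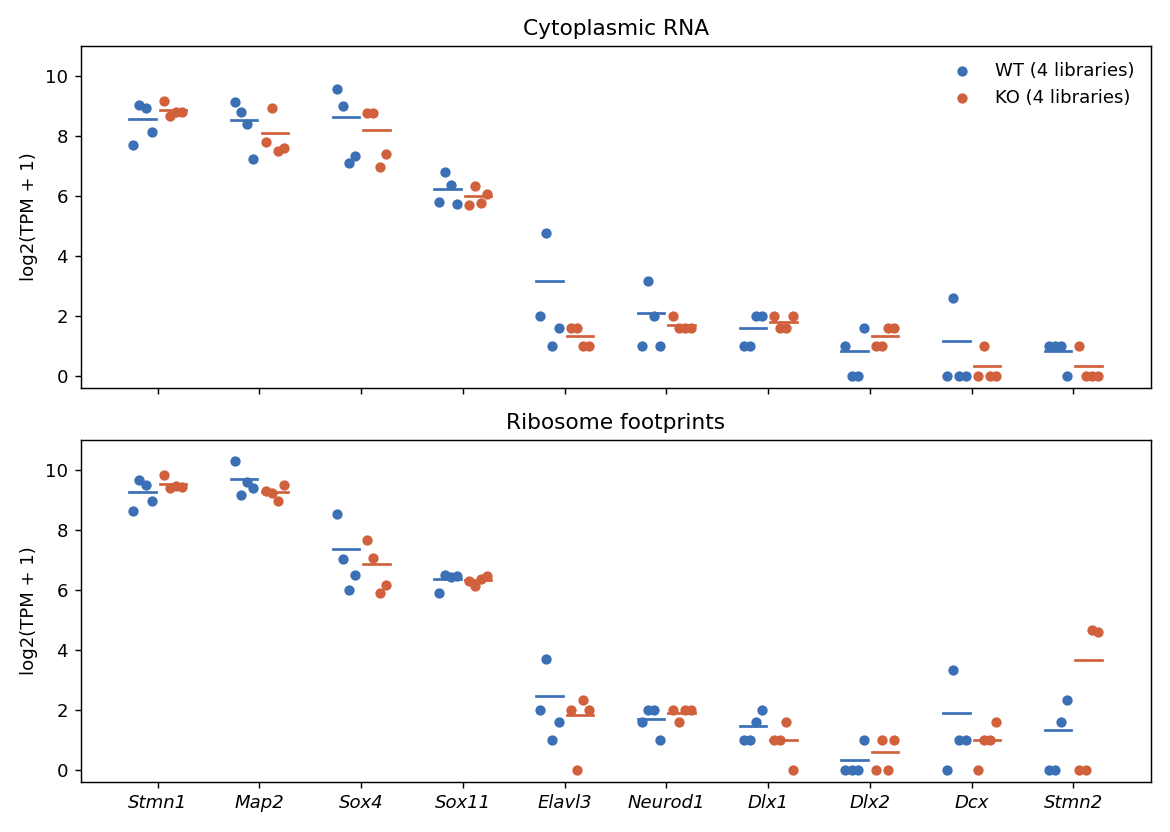
Level of each gene in every library, as log2(TPM + 1), with cytoplasmic RNA above and footprints below; dots are libraries (WT replicates 1 to 4, then KO 1 to 4, from left to right) and bars are group means. Stmn1, Map2, Sox4 and Sox11 lie far above the other 6 genes in both assays, and WT and KO dots overlap for each gene.

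Measured in CPM, footprints of Stmn1, Map2 and Sox11 made up a larger share of the library than their RNA did in every culture. Those of Sox4 made up a smaller share. Only relative values can be read from this, since each assay is scaled to its own total. Of 10 genes, 5 passed the filter on low counts in both assays, namely Stmn1, Map2, Sox11, Neurod1 and Sox4, and all 5 passed (4 higher in footprints, 1 lower). Of all 10863 genes tested, 80.7% passed the same test (41.7% higher, 39% lower), so passing does not set these 5 apart, and only the size and direction of each is informative. The median log2 ratio of the 5 was 0.77, against 0.04 over all genes. Without the filter on low counts all 10 were fitted and 7 passed, beside 61% of 15904 genes: Dcx (2.59, SE 0.62, edgeR adjusted p = 0.00188) and Stmn2 (3.87, SE 1.24, edgeR adjusted p = 0.0132) joined the 5 as higher in footprints, and Elavl3, Dlx1 and Dlx2 did not pass (adjusted p = 0.128, 0.743 and 0.362). By culture, the log2 ratio of Dcx was above 0 in 7 of 8. That of Stmn2 was above 0 in 4 of 8 (range -2.14 to 5.33), only in replicates 3 and 4.

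Stmn1 RNA stood at 38.3, 89.8, 106 and 63.7 CPM in WT 1 to 4 and at 114, 76, 97.3 and 95.2 CPM in KO 1 to 4. Its footprints stood at 147, 334, 320 and 227 CPM in WT 1 to 4 and at 365, 274, 307 and 289 CPM in KO 1 to 4. Culture WT 1, where genes of dividing cells were low, was lowest in both assays, followed by WT 4. In CPM, footprints exceeded RNA by 3.02-fold to 3.82-fold in the 8 cultures, a narrow band that held in WT and KO. In TPM the excess was smaller, with means of 677 in footprints and 421 in RNA. The fitted log2 ratio was 1.95 (SE 0.07, edgeR quasi-likelihood test with culture as a block, Benjamini-Hochberg adjusted p = 1.32e-10).

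Map2 RNA was at 687, 513, 491 and 231 CPM in WT 1 to 4 and at 291, 604, 261 and 283 CPM in KO 1 to 4. Its footprints were at 1838, 920, 1320 and 1201 CPM in WT and at 968, 945, 845 and 1165 CPM in KO. The RNA varied more than the footprints did: the footprint excess ran from 1.56-fold to 5.2-fold between cultures. Its log2 ratio was 1.72 (SE 0.17, edgeR adjusted p = 1.16e-06), and 1.35 within replicates 1 and 2 against 2.00 within replicates 3 and 4. A long noncoding RNA gene, a small nucleolar RNA gene and pseudogenes overlap the Map2 locus (chr1:66175202-66442583, mm10). Whether counting used strand is not given in the sources used here.

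Sox4 and Sox11, the paired SoxC factors, lay on opposite sides of the library average. In CPM, Sox11 footprints exceeded its RNA by 1.15-fold to 2.00-fold in the 8 cultures, with a log2 ratio of 0.77 (SE 0.11, edgeR adjusted p = 2.86e-05). Sox4 footprints were at 0.35 to 0.653 times its RNA in the 8 cultures, with a log2 ratio of -0.78 (SE 0.10, edgeR adjusted p = 1.04e-05). The 2 genes did not overlap in this measure in any culture, although the difference between them was not tested. The direction of each held within WT cultures alone (0.68 for Sox11, -0.75 for Sox4) and within KO cultures alone (0.84 and -0.83). For Sox11 it depended on the measure. In TPM its footprints lay below its RNA in WT 2 (90 against 110) and KO 2 (69 against 80), and above it in the other cultures. Sox4 footprints lay below Sox4 RNA in TPM in every culture.

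Neurod1, a driver of neuronal differentiation, was rare in both assays, with 3 to 39 RNA counts and 13 to 46 footprint counts per library. Its log2 ratio of 0.59 (SE 0.25, edgeR adjusted p = 0.0419) was positive in 6 of 8 cultures and did not pass with DESeq2 (adjusted p = 0.0622), with another scaling (0.0591), within replicates 1 and 2 alone (0.425) or in 7 of 8 fits that left out 1 culture (0.0541 to 0.153, when WT 1, WT 3, WT 4 or any KO culture was left out).

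**Figure D2:**
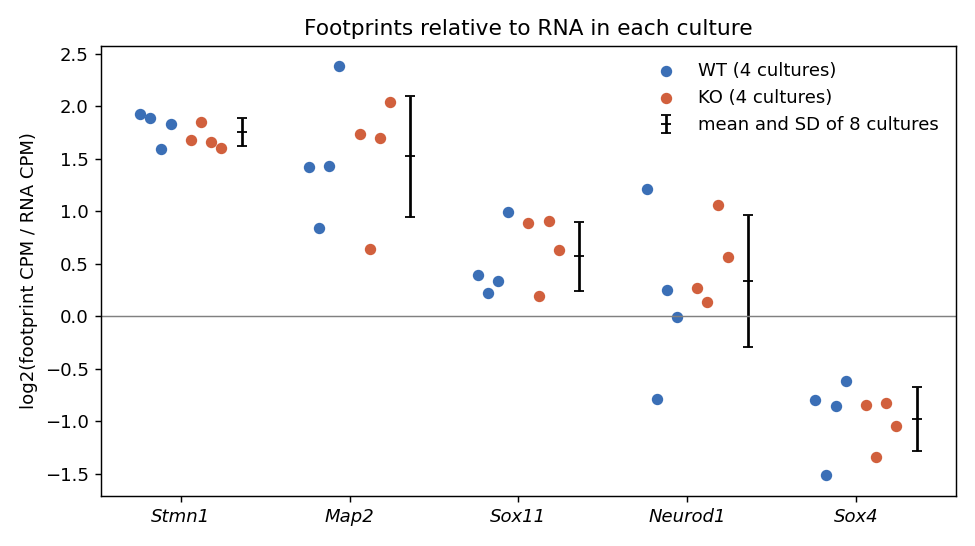
Log2 of footprint CPM over RNA CPM (prior count 2) in each of 8 cultures for the 5 genes tested in both assays; dots are cultures and the bars give mean and SD. Stmn1 is tight and high, Map2 is high and wide, Sox11 lies above 0 and Sox4 below 0 in all 8 cultures, and Neurod1 crosses 0.

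Among other genes of neurons that were listed for comparison, the ratio ran in both directions. So it did over all 10863 genes tested (41.7% higher, 39% lower), and the counts below are to be read beside those shares. Of 24 genes of the neuronal cytoskeleton, 22 were tested, of which 10 were higher in footprints and 6 lower (median log2 ratio 0.27). The 3 most abundant in RNA were lower or level: the tubulin genes Tuba1a (-2.47, edgeR adjusted p = 7.81e-10) and Tubb2b (-1.04, edgeR adjusted p = 1.49e-07) were lower, while Marcksl1, an actin-regulating substrate of protein kinase C, was at 0.03 (edgeR adjusted p = 0.745). Picking genes by RNA level favours a low ratio, since RNA is its denominator. Dpysl2, next by RNA level (307 TPM), was higher at 0.59 (edgeR adjusted p = 1.06e-05). Of 28 neuronal transcription factors, 13 were tested, with 4 higher and 3 lower. Sox12, the third SoxC factor, was lower in footprints at -1.41 (edgeR adjusted p = 1.5e-08), like Sox4 and unlike Sox11. Of 14 neuronal RNA-binding protein genes, 8 were tested, with 3 higher and 3 lower.

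From culture to culture, RNA and footprints of Stmn1 varied together (Pearson r = 0.976, exact permutation p = 0.000546, adjusted over 5 genes 0.00136; Spearman rho = 0.857, exact permutation p = 0.0107, adjusted 0.0268; n = 8). Without WT 1 and WT 4, the 2 cultures farthest from the median RNA, r was 0.772. The relation was not significant for Neurod1 (r = 0.642, rho = 0.619), Sox11 (r = 0.498, rho = 0.429) or Map2 (r = 0.394, rho = 0.214), with exact permutation p values of 0.0894, 0.21 and 0.349 for r and 0.115, 0.299 and 0.619 for rho (adjusted 0.149, 0.262, 0.349, 0.192, 0.374 and 0.619 in the same order, n = 8). For Sox4 the cultures fell into separate clusters by replicate set, so no pooled r is given.

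The SoxC pair also differed between the sets of cultures. Sox4 was lower in replicates 3 and 4 than in replicates 1 and 2, in RNA and in footprints and in both genotypes, whereas Sox11 did not pass the test in either assay. Each culture was a separate isolation, and the identifier length of the footprint libraries changed between the sets; what else changed is not given in the labels, so these cannot be told apart. Sequence from before the start of both genes is shown because the pair belongs to one family and parted here: the 250 bases before the transcription start from RefSeq (GRCm38.p6, the assembly of mm10), which held a window for 8 of the 10 genes. Both lie on the minus strand and are printed in their own direction, Sox4 from chr13:28953700-28953949 and Sox11 from chr12:27342719-27342968. Capitals mark CCAAT (read on the other strand as ATTGG), the box bound by NF-Y, and CAGCTG, an E-box core that reads the same on both strands.
Sox4: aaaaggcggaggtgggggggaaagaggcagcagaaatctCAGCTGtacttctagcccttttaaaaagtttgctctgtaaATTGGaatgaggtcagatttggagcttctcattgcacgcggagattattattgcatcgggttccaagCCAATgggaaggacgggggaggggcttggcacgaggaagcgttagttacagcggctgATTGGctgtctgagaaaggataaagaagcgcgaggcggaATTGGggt
Sox11: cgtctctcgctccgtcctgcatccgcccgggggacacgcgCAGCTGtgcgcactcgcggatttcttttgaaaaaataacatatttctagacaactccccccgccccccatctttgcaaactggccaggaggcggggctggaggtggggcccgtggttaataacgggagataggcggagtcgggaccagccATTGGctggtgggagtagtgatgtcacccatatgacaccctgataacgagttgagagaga
The Sox4 window held 4 CCAAT matches and the Sox11 window 1, and each held 1 CAGCTG. Of 32851 RefSeq windows of this length, 33.8% held CCAAT and 13% held CAGCTG on either strand. These are letter matches only; no occupancy was measured.

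Sox4 RNA stood at 816 and 510 CPM in WT 1 and 2 and at 490 and 468 CPM in KO 1 and 2. In replicates 3 and 4 it stood at 171 and 212 CPM in WT and at 153 and 209 CPM in KO. The 2 sets did not overlap, and WT and KO lay side by side within each. The log2 difference was -1.60 (SE 0.21, edgeR adjusted p = 0.00697, with genotype in the fit), and it passed in each of 8 fits that left out 1 library (-1.74 to -1.41). In RNA 25.2% of 11097 genes passed this test (13.1% lower), and Sox4 ranked 55th by p; of 5 genes tested here it was the one that passed. The Sox4 locus (chr13:28948919-28953699) overlaps a long noncoding RNA gene, Gm46405, whose reads may be mixed with its own.

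Sox4 footprints stood at 470 and 178 CPM in WT 1 and 2, at 274 and 185 CPM in KO 1 and 2, at 94.7 and 139 CPM in WT 3 and 4 and at 86.2 and 101 CPM in KO 3 and 4. Again every value of replicates 3 and 4 lay below those of replicates 1 and 2. The log2 difference was -1.38 (SE 0.31, edgeR adjusted p = 0.0243). It passed without WT 1 or WT 2 and missed when any of the other 6 libraries was left out (adjusted p = 0.0526 to 0.0766). In footprints 19% of 11472 genes passed (11.5% lower, 7.56% higher), and of 9 genes tested here Sox4 fell and Stmn2 rose.

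Sox11 RNA ranged from 50.3 to 95.6 CPM in replicates 1 and 2 and from 57.1 to 89.9 CPM in replicates 3 and 4, with a log2 difference of 0.04 (SE 0.25, edgeR adjusted p = 0.909). Its footprints ranged from 66.8 to 112 CPM and from 107 to 121 CPM, with a log2 difference of 0.34 (SE 0.17, edgeR adjusted p = 0.167). The ratio of the 2 genes on the TPM scale therefore moved with Sox4: Sox4 exceeded Sox11 in RNA by 4.65-fold to 14.1-fold in replicates 1 and 2 and by 1.67-fold to 3.06-fold in replicates 3 and 4. In footprints the ratio was 1.42 to 6.24 in the first set and 0.716 to 1.02 in the second, so that in replicates 3 and 4 the 2 factors had like footprint levels per length. Sox12, the third SoxC factor, was higher in replicates 3 and 4, by 0.83 in RNA (edgeR adjusted p = 0.0383) and 0.84 in footprints (edgeR adjusted p = 0.0203). Of neural stem and progenitor markers, 6 of 15 tested were lower in RNA and 7 of 15 in footprints in replicates 3 and 4. Of astrocyte markers, 6 of 10 and 6 of 11 were lower, beside 13.1% and 11.5% of all genes. The other markers of both lists did not pass. The part of these markers in the Sox4 result was not tested.

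**Figure D3:**
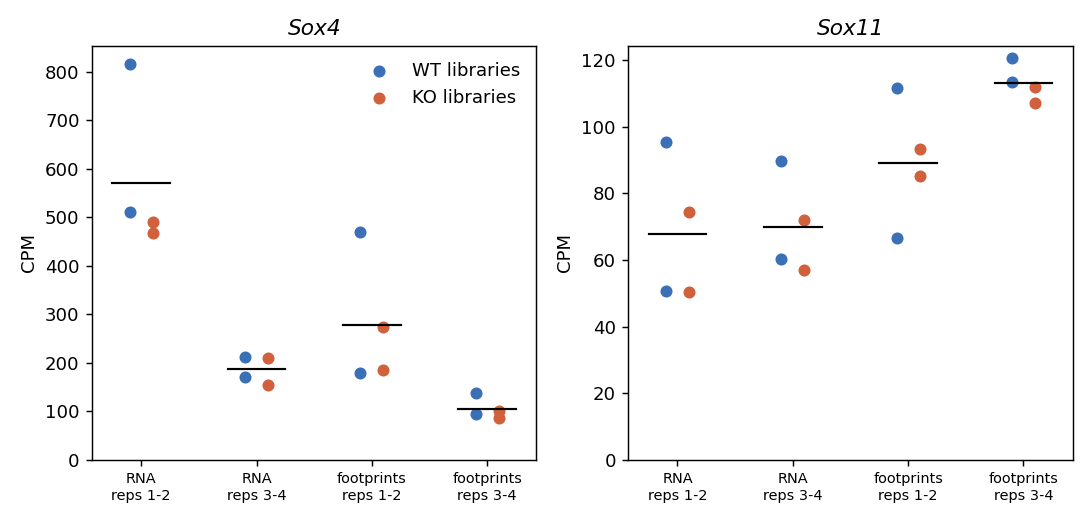
Sox4 (left) and Sox11 (right) in CPM, by assay and replicate set; dots are libraries and bars are means of 4. Sox4 values of replicates 3 and 4 lie below those of replicates 1 and 2 in both assays, while Sox11 sets overlap.

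Counts of Dcx, Elavl3 and Stmn2 lay mostly in 1 or 2 cultures. Dcx, which binds and stabilizes microtubules in migrating neuroblasts, and Elavl3 both peaked in culture WT 2. Their promoter windows are shown because the genes rose in the same culture: 250 bases each before the first listed start, both on the minus strand, Dcx from chrX:143933220-143933469 and Elavl3 from chr9:22052024-22052273. Capitals mark the motifs named for the SoxC pair and, in addition, TATAAA, a core of the TATA box.
Dcx: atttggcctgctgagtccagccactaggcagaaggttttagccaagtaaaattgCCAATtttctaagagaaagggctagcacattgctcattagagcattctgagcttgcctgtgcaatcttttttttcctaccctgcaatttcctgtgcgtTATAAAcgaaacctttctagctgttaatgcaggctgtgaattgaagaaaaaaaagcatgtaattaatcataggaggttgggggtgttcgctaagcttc
Elavl3: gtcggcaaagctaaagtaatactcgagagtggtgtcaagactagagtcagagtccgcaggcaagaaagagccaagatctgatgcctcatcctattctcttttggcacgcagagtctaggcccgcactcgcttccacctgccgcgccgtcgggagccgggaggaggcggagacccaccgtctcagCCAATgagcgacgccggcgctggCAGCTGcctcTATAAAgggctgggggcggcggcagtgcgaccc
Each window held 1 CCAAT and 1 TATAAA, and that of Elavl3 also 1 CAGCTG. Of the 32851 windows, 12.4% held TATAAA on either strand. Both windows overlap the annotated span of their gene, which reaches chrX:143933396 for Dcx and chr9:22052146 for Elavl3. These, too, are letter matches only, and their part in the WT 2 values was not tested. RefSeq lists another Dcx start, whose window (chrX:143933125-143933374) held the TATAAA and no CCAAT.

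Dcx had 23 RNA counts in WT 2 and 7 in KO 2, and 0 in the other 6 RNA libraries, where 0 counts allow up to 0.456 to 0.563 CPM (3 counts). Its footprint counts were 4, 141, 11 and 6 in WT 1 to 4 and 3, 21, 15 and 20 in KO 1 to 4. WT 2 alone therefore held more Dcx footprints than the other 7 libraries together (80), at 11.5 times their rate (95% exact interval 8.68 to 15.3, counting error only), while the other 7 overlapped between genotypes. In RNA the rate in WT 2 was 21.9 times that of the other 7 (9.08 to 60.3).

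Elavl3, which binds AU-rich mRNAs in neurons, had 11, 131, 9 and 14 RNA counts in WT 1 to 4 and 9, 9, 7 and 8 in KO 1 to 4. Its footprint counts were 41, 186, 12 and 23 in WT and 43, 9, 51 and 35 in KO. Here too WT 2 was highest, at 13 times the rate of the other 7 in RNA (95% exact interval 9.62 to 17.7) and 5.67 times in footprints (4.63 to 6.93). Unlike in RNA, KO 1, KO 3 and KO 4 lay above 3 of the 4 WT footprint libraries.

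The genes whose footprints followed Dcx most closely over the 8 libraries, among 9950 genes with a mean of at least 5 CPM, were Tmx4 (Pearson r = 0.962), Gria2 (0.955), Epb4.1l3 (0.948), Pfkp (0.926) and Fnbp1l (0.924). Gria2 encodes an AMPA receptor subunit, and its footprints were at 114 CPM in WT 2 against at most 50.7 in the other 7 libraries. Epb4.1l3 was at 60.4 against at most 5.48 CPM, and Pfkp at 29.0 against at most 13.3. Tmx4 (56.5 against 50.7 CPM) and Fnbp1l (152 against 133) were only slightly higher in WT 2. Such r values over 8 libraries are a description, and how far they rest on WT 2 was not tested. WT 2 was the highest footprint library for 10.8% of all genes tested. It was so for 10 of 24 genes of the neuronal cytoskeleton (among them Tubb3, Mapt, Gap43 and Dclk1) and for 4 of 8 neuronal RNA-binding protein genes, including Elavl2 and Elavl4, for 1 of 15 mature neuron markers (Thy1) and for 1 of 14 neuronal transcription factors. In RNA it was highest for 16.2% of all genes, 8 of 22 cytoskeleton genes, 4 of 8 RNA-binding protein genes, 2 of 7 mature neuron markers and 1 of 13 neuronal transcription factors. These orders carry no test and were counted after the values of Dcx had been seen, as were the genes named in them.

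Stmn2, a neuronal stathmin of growing axons, had a different pattern: footprints almost without RNA. Its footprint counts were 0, 0, 9 and 21 in WT 1 to 4 and 0, 1, 140 and 132 in KO 1 to 4. Its RNA counts were 2, 2, 1 and 0 in WT and 2, 0, 0 and 0 in KO. The 272 footprints of KO 3 and KO 4 thus stood beside no RNA count, which makes their rate at least 43-fold higher than in the RNA of these cultures (95% exact lower limit); against a floor of 3 counts over both RNA libraries the ratio was 53.3. Over all 8 cultures 303 footprints stood against 7 RNA counts, a ratio of 21.5 (95% exact interval 10.3 to 53.9, counting error only). Whether these footprints came from the cells of the cultures or from other material in the footprint libraries was not tested, so every fold given for Stmn2 describes the libraries.

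Replicates 3 and 4 held 302 of the Stmn2 footprints and replicates 1 and 2 held 1, a ratio of 425 (95% exact interval 75.7 to 16800, counting error only). Of 11472 genes this difference ranked first by p (edgeR adjusted p = 0.00942), and it passed in all 8 fits that left out 1 library (adjusted p = 0.00588 to 0.0396). Within replicates 3 and 4, KO exceeded WT by 8.23-fold (5.64 to 12.4), and both KO libraries lay above both WT libraries. Between 2 and 2 libraries alone that difference did not pass (edgeR adjusted p = 0.414).

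**Figure D4:**
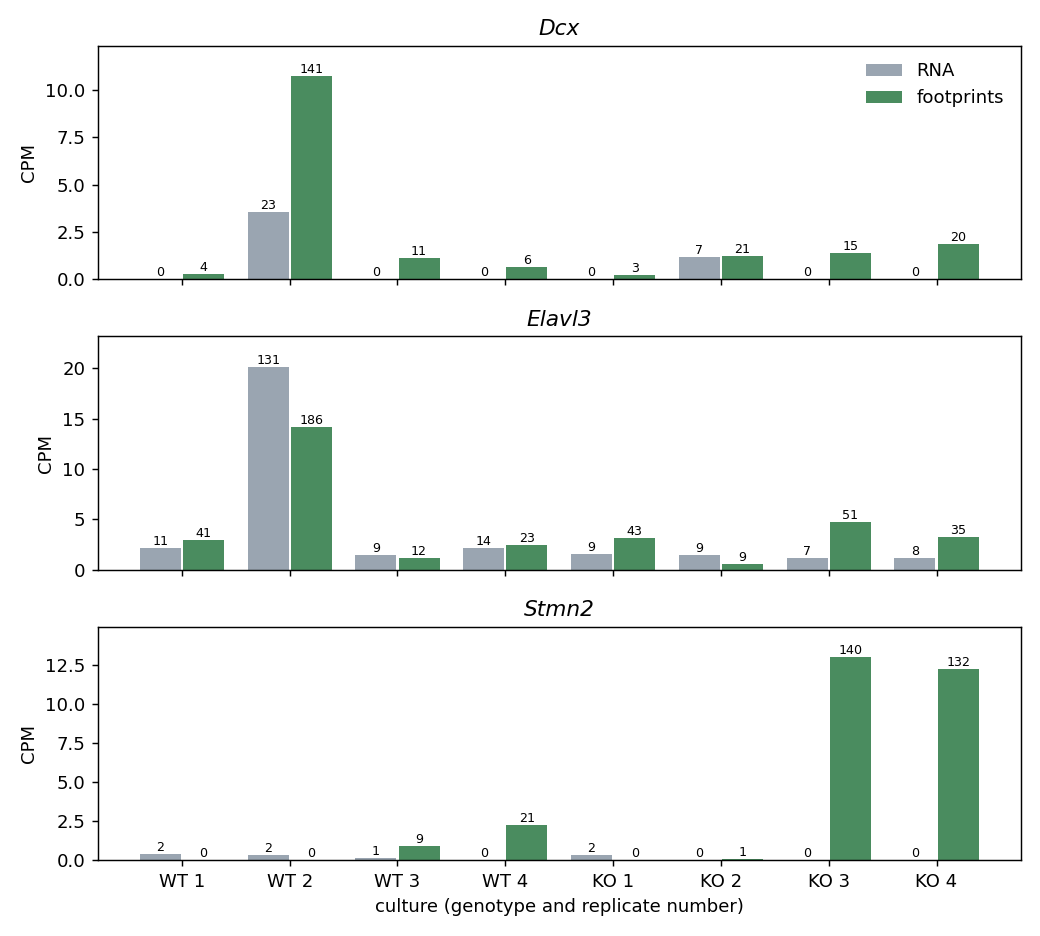
Dcx, Elavl3 and Stmn2 in CPM in each culture, RNA in grey and footprints in green, with the count above each bar. Dcx and Elavl3 peak in WT 2 in both assays, while Stmn2 footprints appear in KO 3 and KO 4 (140 and 132 counts) with no RNA count beside them.

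Some mature neuron markers had the order of libraries that Stmn2 footprints had. Of 15 tested in footprints, 8 had KO 3 and KO 4 above the other 6 libraries (Calb2, Gad1, Nefl, Slc17a7, Snap25, Syp, Syt1 and Vsnl1), against 3.95% of all genes. In RNA 0 of 7 did, against 4.23%, where so few genes make 0 the likely count in any case. These orders, too, were counted after the Stmn2 values had been seen, and the genes named were chosen for them. The summed footprint level of the 18 markers was 358 and 369 TPM in KO 3 and KO 4, 351 TPM in WT 2 and 161 to 204 TPM in the other 5 libraries; in RNA it was 258 and 266 TPM in KO 3 and KO 4 and 237 to 442 TPM in the rest. Gad2, which makes the transmitter GABA, had 52 and 59 footprints in KO 3 and KO 4, 3 and 11 in WT 3 and WT 4, 0 in replicates 1 and 2, and 4 RNA counts in all 8 libraries. Slc32a1, the vesicular GABA transporter, had 48 and 32 footprints in KO 3 and KO 4, 7 in WT 3 and WT 4 together, and no RNA count anywhere. The part of these markers in the Stmn2 result was not tested.

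Dlx1, Dlx2 and Neurod1 had no culture that stood far above the rest in both assays. Dlx1 had 3 to 13 RNA counts and 4 to 20 footprint counts per library, and it overlaps the antisense gene Dlx1as on chromosome 2 (chr2:71528113-71533981), so that its reads are uncertain where strand is unused. Dlx2 had 0 to 14 counts in either assay, 47 in all RNA libraries and 49 in all footprint libraries, and did not pass the filter on low counts in either assay. Neurod1 RNA peaked in WT 2 at 5.99 CPM, the remaining libraries ranging from 0.589 to 3.3 CPM, but its footprints there (3.5 CPM) lay within the range of the others (1.41 to 4.16 CPM).

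With edgeR none of these genes passed the threshold between KO and WT, while DESeq2 called 1, Stmn2 in footprints (adjusted p = 0.00704, beside 0.715% of all genes called with DESeq2). In RNA 0 of 5 genes tested with edgeR passed, against 0.00901% of 11097 genes (1 gene); in footprints 0 of 9, against 0.0349% of 11472 genes (4 genes, 0.0262% higher and 0.00872% lower); in footprints per RNA, the interaction of assay and genotype, 0 of 5, against 0% of 10863 genes (0 genes with edgeR, 14 at an unadjusted p under 0.05, and 0 with DESeq2). At an unadjusted p under 0.05 stood 0 of the 5 in RNA, 1 of the 9 in footprints (Stmn2) and 0 of the 5 in footprints per RNA. With so few genes called anywhere, a count of 0 among these genes says little. WT and KO ranges overlapped for every gene in both assays. The p-values for RNA and for footprints measure the spread between cultures. The fit of footprints per RNA had no term for culture, although both libraries of a culture came from a single lysate. Its p-values therefore do not use that pairing. At an unadjusted p under 0.05 it gave 14 genes, against 152 with culture as a block (edgeR). With replicate number and culture as blocks there were 420.

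Sox4 RNA was lower in KO than in the WT culture of the same number in 4 of 4 pairs, with a log2 fold change of -0.37 (SE 0.55, edgeR adjusted p = 1), and its footprints in 3 of 4 pairs (-0.41, SE 0.30, edgeR adjusted p = 0.999). These fits had no term for the pair, and the RNA fit had none for the replicate set. With replicate number as a block, Sox4 was at -0.26 in RNA (SE 0.16, edgeR adjusted p = 0.825). In footprints it was then at -0.33 (SE 0.17, edgeR adjusted p = 0.907). In the main fits Sox11 was at -0.23 (SE 0.26) in RNA and -0.05 (SE 0.16) in footprints. Stmn1 was at 0.36 (SE 0.31) and 0.27 (SE 0.26), and Map2 at -0.42 (SE 0.38) and -0.43 (SE 0.22, unadjusted p = 0.0918, edgeR). Neurod1 was at -0.49 (SE 0.66) in RNA and 0.18 (SE 0.39) in footprints. Each fold change lay within 2 SE of 0. In footprints per RNA the log2 differences of Sox4, Map2, Stmn1 and Sox11 lay between -0.09 and 0.18, with SE of 0.32 to 0.69, and that of Neurod1 was 0.67 (SE 0.77). With replicate number and culture as blocks, these 4 values lay between -0.10 and 0.17 with smaller errors (SE 0.097 for Stmn1, 0.108 for Sox4, 0.117 for Map2 and 0.144 for Sox11, edgeR adjusted p = 0.998 for each), and Neurod1 was at 0.48 (SE 0.48).

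Stmn2 footprints were higher in KO in 3 of 3 pairs with a count, though pair 2 held only 1 count, in KO 2. Their fold change was the largest of the 9, at a log2 value of 2.94 (SE 0.53, unadjusted p = 0.000542, edgeR adjusted p = 0.239). DESeq2 called it (2.79, SE 0.67, adjusted p = 0.00704), edgeR did not in any fit that left out 1 library (adjusted p = 0.313 to 0.986), and without a term for identifier length the adjusted p was 1. Dcx (-1.10, SE 1.27) and Elavl3 (-0.61, SE 0.97) footprints were lower in KO on average through WT 2: without it the values turned to 1.02 and 0.33. Dlx1 footprints were at -0.46 (SE 0.58). Elavl3 RNA was lower in KO in 4 of 4 pairs, but outside pair 2 the counts were 11, 9 and 14 in WT and 9, 7 and 8 in KO. By CPM, Dlx2 footprints were higher in KO in 4 of 4 pairs. Their counts were 6, 6, 0 and 6 in WT 1 to 4 and 6, 14, 2 and 9 in KO 1 to 4. Pair 1 differed only through scaling (0.436 and 0.440 CPM). Fitted without the filter on low counts, Elavl3 RNA was at -2.24 (SE 0.84, unadjusted p = 0.0229, edgeR adjusted p = 1) and Dlx2 footprints at 0.58 (SE 0.83, edgeR adjusted p = 0.96).

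The genotype difference did not change with the replicate set past the threshold for any of the 9 footprint or 5 RNA tests (edgeR interaction, adjusted p = 1 for each). The largest interaction values were those of Dcx (3.73, unadjusted p = 0.108) and Elavl3 (3.33, unadjusted p = 0.0486), both with WT 2 in the first set.

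**Figure D5:**
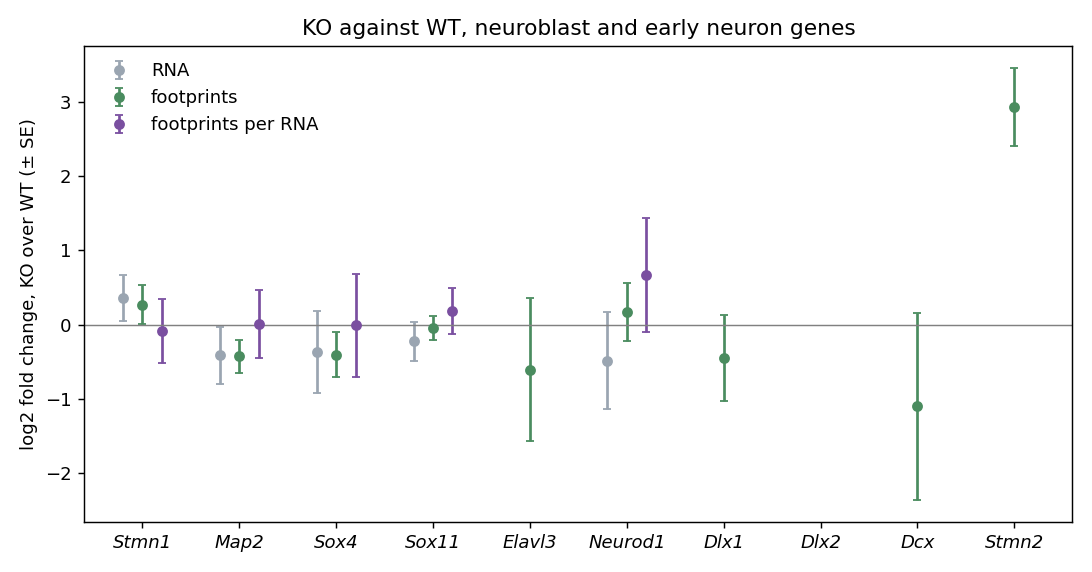
Log2 fold change of KO over WT with its SE for RNA, footprints and footprints per RNA, for the genes that passed the filter on low counts in each; Dlx2 passed it in neither assay. Most values lie within 1 or 2 SE of 0, and Stmn2 footprints stand out at 2.94.

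Around these genes the lists of neuronal genes gave no call for genotype in any of the 3 tests. Of the neuronal cytoskeleton genes tested, 8 of 22 were higher in KO in RNA and 9 of 24 in footprints (medians -0.22 and -0.16), beside medians of 0.01 over all genes in both. Of neuronal RNA-binding protein genes, 1 of 8 was higher in each assay (medians -0.37 and -0.33). Neuronal transcription factors were near the median of all genes (0.02 and 0.04). Mature neuron markers lay at -0.24 in RNA (1 of 7 higher) and at 0.86 in footprints (13 of 15 higher), and footprints per RNA had a median of 1.18 (7 of 7 positive), with KO 3 and KO 4 as described above. Genes of dividing cells were higher in KO in 16 of 16 in both assays (medians 0.44 and 0.48), with WT 1 low.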

How the data were processed

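RNA and footprint libraries of 8 cultures were analysed. The authors deposited estimated counts per gene (whole numbers) and rounded TPM, which is treated as a score because of the rounding and only describes levels per length. The build mm10 and, among other tools, RSEM 1.2.11, TopHat2 2.0.9 and Bowtie2 2.1.0 come from the submitters' processing notes; the treatment of identifiers and of strand is not given in the sources used here. Each replicate is a separate isolation of cells, as the labels state.

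Of 20436 rows, 27 with a bare number for a name (0.244% to 0.422% of a library's counts) were left out. The counts went into edgeR 4.0.16 under R 4.3.3 (filterByExpr, TMM, quasi-likelihood F test, two-sided, Benjamini-Hochberg over all genes tested, threshold 0.05) and alternatively with DESeq2 1.42.0. RNA was fitted with genotype, footprints with genotype and identifier length. Footprints per RNA was the assay by genotype interaction over 16 libraries, with identifier length for the footprint libraries. Its main fit had no term for culture, and blocks for culture and replicate number were alternatives. Footprints against RNA had culture as a block. CPM is scaled by TMM within an assay, so its ratios differ slightly from fitted ones, which were scaled over all 16 libraries. Log2 CPM used a prior count of 2, or 0.5 as an alternative. Groups at 0 were given a floor of 3 counts. Correlations were tested by exact permutation (scipy 1.17.1). The scripts were tested on simulated data.

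No value entered the rule for the 10 genes, but they and the lists were chosen with earlier results of these data known, namely an analysis of all genes. The rule for naming names all 10 genes, up to 3 of the most abundant genes of a list, defining markers at 0, and the 5 genes most like Dcx in footprints. The genes named for the order of libraries were chosen after their values were seen, as were Prom1, Hopx, Lpar1 and Dpysl2. WT and KO libraries with the same number deviated together from their group means (r = 0.481 to 0.613 for RNA, 0.379 to 0.54 for footprints), so the numbers of the titles were taken to pair the cultures. RNA and footprints of a culture correlated at 0.477 to 0.913.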

Additional observations from a re-analysis of the deposited data

Results flagged for a closer look

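In 40 groups of 4 libraries (10 genes, 4 groups each), 8 had a library far from the other 3 by Dixon's criterion; chance gives about 1 in 20 groups where values are continuous. In 3 of the 8, the other 3 libraries had no count, so that any count would have stood apart, and the chance rate does not hold for them. Dcx in culture WT 2 stood at 3.54 CPM in RNA with 0 in the other 3 WT libraries, and at 10.7 CPM in footprints with 0.291 to 1.12 CPM in the others. Elavl3 in WT 2 stood at 20.1 CPM in RNA with 1.48 to 2.19 CPM in the others, and at 14.1 CPM in footprints with 1.22 to 2.98 CPM. Dcx RNA in KO 2 was at 1.16 CPM and Stmn2 RNA in KO 1 at 0.339 CPM, each with 0 in the other 3 KO libraries; the latter is 2 counts. Sox11 footprints in WT 1 were low, at 66.8 CPM with 112 to 121 CPM in the others. Map2 RNA in KO 2 was high, at 604 CPM with 261 to 291 CPM in the others, and its footprints there, at 945 CPM, lay within the range of the other KO libraries.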

How the results depend on the processing

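For KO against WT the number of genes called was small and moved with the tool: 1 in RNA and 4 in footprints with edgeR, 20 and 82 with DESeq2, where 1 of the 10 genes, Stmn2, was called in footprints. With the replicate number as a block it was 0 in RNA and 0 in footprints, with a term for the replicate set 0 in RNA, within replicates 1 and 2 alone 0 in both, within 3 and 4 alone 0 in RNA and 2 in footprints, and without single libraries 0 to 1 in RNA and 0 to 14 in footprints. The block changed no call among the 10 genes. For replicates 3 and 4 against 1 and 2, DESeq2 called 3398 footprint genes in place of 2185, and in RNA 2 of the genes followed here in place of 1 (Map2, adjusted p = 0.0463, was added). Leaving out single libraries gave 319 to 2222 footprint genes (fewest without WT 3), 1091 to 2855 RNA genes (fewest without WT 4) and 1 to 2 of the 10 genes in each assay, Map2 RNA passing without KO 1 (adjusted p = 0.0471). Directions turned for differences near 0 or held by 1 library. For KO against WT in footprints, replicates 1 and 2 alone gave 0.0051 for Sox11 and 0.39 for Dlx1, and replicates 3 and 4 alone gave 0.86 for Dcx and 1.10 for Elavl3. In footprints per RNA, Map2 was at -0.0042 with the other size factors, with DESeq2 at -0.0042 and within replicates 1 and 2 at -0.046, where Sox4 was at 0.027. Single omissions gave for RNA -0.64 to 0.15 (Sox4) and -0.81 to 0.21 (Neurod1). For footprints they gave -1.74 to 1.02 (Dcx), -0.19 to 0.10 (Sox11), -1.24 to 0.33 (Elavl3) and -0.086 to 0.48 (Neurod1). For footprints per RNA they gave -0.17 to 0.057 (Stmn1), -0.20 to 0.39 (Map2) and -0.31 to 0.32 (Sox4). Between replicate sets they gave in footprints -0.18 to 0.28 (Stmn1), -0.18 to 0.22 (Map2), -1.54 to 1.25 (Dcx), -1.28 to 0.38 (Elavl3) and -0.095 to 0.47 (Neurod1), and in RNA -0.022 to 0.44 (Stmn1), -0.11 to 0.25 (Sox11) and -0.77 to 0.42 (Neurod1). The cause was not tested. Dcx, Stmn2, Dlx1, Dlx2 and Elavl3 in RNA and Dlx2 in footprints did not pass the filter on low counts. Without it, none was called for genotype, and Dcx and Stmn2 were called higher in footprints than in RNA. For Stmn2 the ratio was above 0 in 4 of 8 cultures, only in replicates 3 and 4.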
